A study of Mus musculus with 18 samples.

Results

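Translation initiation factors were examined in mouse CD4+CD25- T cells that carried or lacked the nuclear receptor genes Nr4a1 and Nr4a3. Members were all entries of the deposited count table whose gene name begins with Eif, apart from those with -ps (pseudogenes) in the name, which left 58 of 55284 named entries. A further 10 Eif entries carried -ps and were set aside. All cells came from competitive bone marrow chimeras numbered 10, 11 and 12, in which BoyJ (CD45.1) hosts received WT (CD45.1/2) marrow together with a minority of germline Nr4a1-/- Nr4a3-/- (DKO, CD45.2) marrow, so that WT and DKO cells of one number developed in the same animal. From each chimera, WT and DKO cells were sorted from spleen and lymph nodes as naive (CD62Lhi CD44lo FR4lo CD73lo) or anergic (CD62Llo CD44hi FR4hi CD73hi), and a portion of the naive cells was stimulated for 3 h on plate-bound anti-CD3 (8 µg/ml) with anti-CD28 (2 µg/ml). This gave 6 groups (WT naive, DKO naive, WT stimulated, DKO stimulated, WT anergic and DKO anergic) of 3 libraries each, 18 in all, made by SMART-seq from small numbers of sorted cells. The age of the animals is not given in the labels. As a model the design has limits: the DKO alleles were absent throughout development, and the chimeras share hosts whose T cells are of mixed origin.

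Initiation factors bring the small ribosomal subunit, the initiator tRNA and the mRNA together. eIF4F, made of the cap-binding protein eIF4E, the scaffold eIF4G and the helicase eIF4A, engages the capped 5′ end, eIF3 bridges it to the small subunit, and eIF2 carries the initiator tRNA until the start codon is found with the help of eIF1, eIF1A and eIF5. Control acts at 2 well-known points, the 4E-BP proteins that hold eIF4E back until mTORC1 phosphorylates them, and the kinases that phosphorylate eIF2 alpha and thereby block its recycling by eIF2B. Naive T cells translate little and are known to enlarge their translation machinery on activation, while anergic T cells respond weakly when their receptor is engaged again.

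Depth ran from 16122020 to 39752234 counts per library. Levels are given as the deposited TPM (a share of transcripts scaled for gene length and library size), as mean ± SD over 3 chimeras. Differences were tested on the counts with edgeR's quasi-likelihood test, with trimmed mean of M values (TMM) scaling, in a single model of all 18 libraries that blocks on the chimera. Fold changes are on the log2 scale with their standard error, and a difference was called at an adjusted p under 0.05 (Benjamini-Hochberg over 33795 genes tested). Summed transcripts of 5 CD4 T cell markers stood at 7278 to 12342 TPM in every library, against 10.6 to 42.7 TPM for 5 B cell and 1.91 to 35.3 TPM for 5 myeloid markers. Treg transcripts differed with genotype in the anergic gate: 5 markers summed to 802 to 1076 TPM in WT and 90.1 to 98.4 TPM in DKO anergic libraries, and Foxp3 stood at 492 ± 43.2 and 19.7 ± 1.59 TPM. Whole-gene values of Nr4a1 and Nr4a3 did not separate the genotypes and so could not check the labels: stimulated cells held 4386 ± 1305 (WT) and 6519 ± 1077 TPM (DKO) of Nr4a1, and 314 ± 88.7 and 504 ± 100 TPM of Nr4a3. The WT stimulated library of chimera 12 stood apart in scaling, with a TMM factor of 0.550 against 0.739 to 1.32 in the other 17, and the WT naive library of that chimera had the lowest factor of the naive libraries (0.892). The number of members called in each comparison was also counted without these 2 libraries.

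Nearly all members were measured well. Of the 58, 54 passed the low-count filter, and 52 of these had a mean log2 CPM (logCPM) over 1. Not tested were Eif4e1b, an oocyte-type eIF4E, Eif4ebp3, another 4E-BP, Eif4a3l2 and Eif2c5, whose highest group mean was 1.15 TPM. Eif2c5 is an old argonaute-type name for what GENCODE lists as a lincRNA. In WT naive cells the most abundant transcripts were Eif1 (731 ± 62.1 TPM) and Eif5a (717 ± 55.7 TPM), whose spreads overlapped, followed by Eif4g2 (452 ± 28.4 TPM) and Eif3h (379.5 ± 43.3 TPM), while Eif3j2 and Eif4a3l1 were the lowest of the tested members (0.815 and 0.571 TPM). All 58 together made up 7074 ± 238 TPM in WT naive and 6897 ± 151 TPM in DKO naive cells. In stimulated cells the sum was 12209 ± 1292 (WT) and 13332 ± 810 TPM (DKO), with the 6 stimulated libraries between 10876 and 14147 and all others at or below 7288. In anergic cells the sum was 6255 ± 260 (WT) and 6676 ± 94 TPM (DKO). Several members share sequence with pseudogenes or sister genes (Eif4a1, Eif1, Eif5a, Eif3e, Eif3j1 with Eif3j2, Eif1a with Eif1ax, Eif2s3x with Eif2s3y), so that reads may be split among them.

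Stimulation for 3 h raised initiation factor transcripts broadly in both genotypes. In WT cells 27 of 54 tested members rose and 2 fell, where 7.13% of all genes tested rose and 4.79% fell. In DKO cells 30 rose and 2 fell, against 8.34% and 5.73% of all genes. Among the 15067 genes with logCPM over 1, a fairer background for these abundant transcripts, 15% rose in WT and 17.7% in DKO cells. The median member changed by 0.75 in WT and 0.88 in DKO cells, the median of all genes by 0.03 and -0.36, and the median of genes with logCPM over 1 by 0.06 and -0.15. All 27 members that rose in WT cells also rose in DKO cells, and Eif2b5, Eif4e2 and Eif4g2 passed the test in DKO cells alone. On TPM, 35 members in WT and 37 in DKO cells had all 3 stimulated libraries above all 3 naive ones, where 12% and 12.1% of all genes did. The count was sensitive to chimera 11: without it, 9 members rose in WT and 19 in DKO cells (edgeR), and none fell in either. With RLE factors in place of TMM, 18 rose and 1 fell in WT cells. Without the 2 WT libraries of chimera 12 the counts were 26 and 2 in WT and 44 and 2 in DKO cells. Shares of all genes are not given for these alternatives, so the shifts need not be particular to the members.

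**Figure D1:**
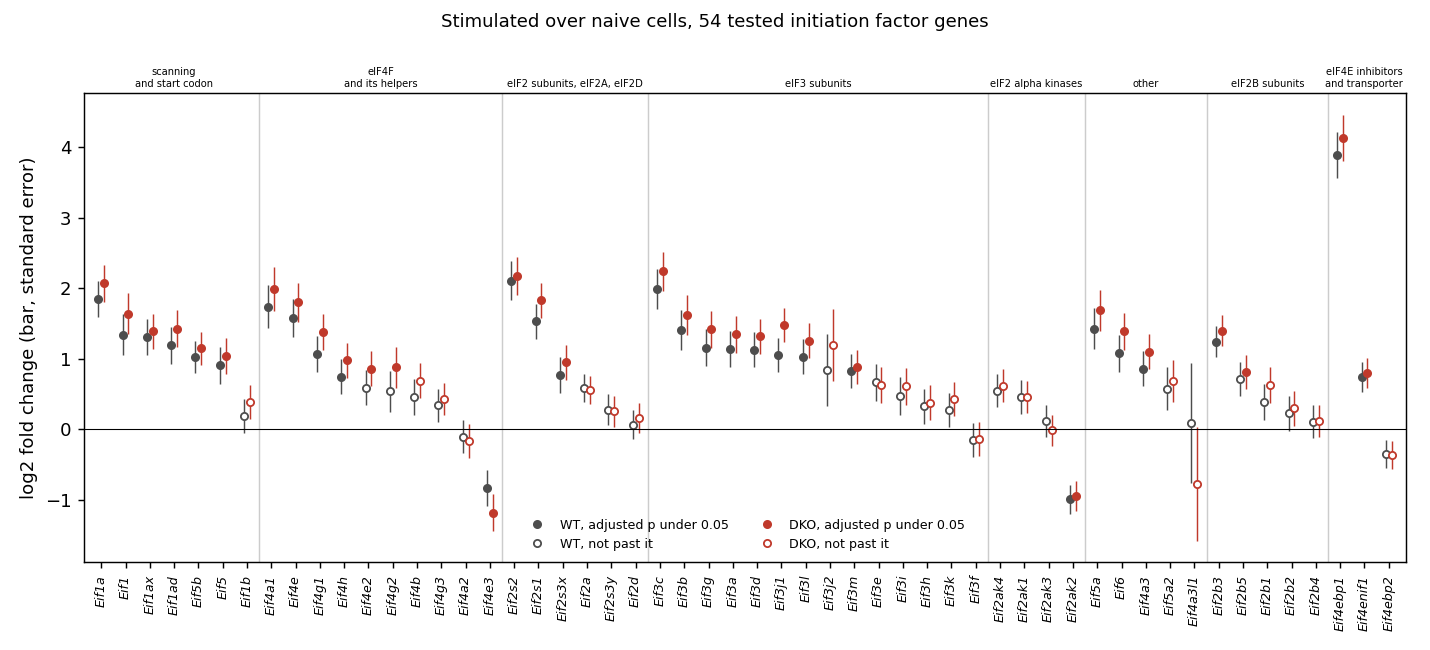
Log2 fold change of stimulated over naive cells (vertical axis, bar, standard error) for the 54 tested members, grouped by role, in WT (grey) and DKO (red) cells; filled points passed an adjusted p under 0.05. Most points lie above 0, Eif4ebp1 highest at 3.89 and 4.13, while Eif4e3 and Eif2ak2 lie below 0 in both genotypes.

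Eif4ebp1 (chromosome 8, 27260329 to 27276674, plus strand, GENCODE vM21 on mm10), which encodes the eIF4E inhibitor 4E-BP1, changed most. Its 3 WT naive libraries (chimeras 10, 11 and 12, the order used throughout) held 11.9, 8.02 and 10.2 TPM and the WT stimulated ones 104, 136 and 143 TPM. In DKO cells the values were 8.47, 11.7 and 7.21 TPM before and 103, 143 and 149 TPM after stimulation. Naive and stimulated libraries lay far apart and the genotypes overlapped, and the fitted changes were 3.89 ± 0.33 (adjusted p = 6.0e-09) in WT and 4.13 ± 0.33 (adjusted p = 2.6e-09) in DKO cells (edgeR). Its sister Eif4ebp2 (4E-BP2) did not follow: WT libraries held 32.4, 38.1 and 36.4 TPM when naive and 27.5, 23.3 and 22.1 TPM when stimulated. The fitted change was -0.35 ± 0.20 (adjusted p = 0.412) in WT and -0.36 ± 0.20 (adjusted p = 0.301) in DKO cells. In both genotypes the stimulated libraries lay below the naive ones, and Eif4ebp2 was called lower in 3 of 11 alternative settings. The ratio of Eif4ebp1 to Eif4ebp2 TPM thus went from 0.286 ± 0.0792 to 5.36 ± 1.39 in WT and from 0.258 ± 0.0729 to 5.89 ± 1.33 in DKO cells. Eif4enif1, the eIF4E transporter 4E-T that carries eIF4E into the nucleus and to P-bodies, rose by 0.74 ± 0.21 and 0.80 ± 0.21, from 27.5 to 39.5 TPM in WT cells, although without chimera 11 the adjusted p was 0.25 in WT and 0.304 in DKO cells, and in WT cells it was 0.217 with RLE factors, 0.247 without the low-count filter and 0.084 by DESeq2.

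Of the eIF4F genes, 4 of 10 tested rose and 1 fell in WT cells, and 6 rose and 1 fell in DKO cells. Eif4a1, the main eIF4A helicase, stood at 224, 221 and 277 TPM in WT naive and 501, 689.5 and 833 TPM in WT stimulated libraries, and at 226, 262 and 201 and 646, 792 and 841 TPM in DKO libraries. Stimulated libraries were all above naive ones, chimera 10 least so, with changes of 1.74 ± 0.30 in WT (adjusted p = 2.1e-04) and 1.99 ± 0.31 in DKO cells (adjusted p = 3.7e-05). Eif4e, which binds the cap, went from 47.4, 47.95 and 46.2 to 99.5, 121 and 134 TPM in WT and from 46.1, 50 and 46.7 to 123, 123 and 158 TPM in DKO cells. Its naive libraries were tightly grouped and lay below every stimulated one (changes of 1.58 ± 0.27 and 1.80 ± 0.28, adjusted p = 2.0e-04 and 3.6e-05). Eif4g1, the scaffold, held 174, 185 and 159 TPM in WT naive and 309, 314 and 298 TPM in WT stimulated libraries, with 199, 146 and 167 and 339.9, 386 and 352 TPM in DKO cells. Again no stimulated library reached down to a naive one (changes of 1.07 ± 0.26 and 1.38 ± 0.26, adjusted p = 0.00527 and 4.2e-04), although without chimera 11 the adjusted p was 0.132 and 0.0679, and with RLE factors it was 0.0611 in WT cells. Eif4h, a cofactor of the helicase, rose by 0.75 ± 0.25 and 0.98 ± 0.25 (adjusted p = 0.0473 and 0.0066). The other cofactor, Eif4b, with 163 TPM in WT naive and 190.2 TPM in WT stimulated cells, changed by 0.46 ± 0.25 and 0.69 ± 0.25 without passing the test (adjusted p = 0.343 and 0.0705). Of 11 alternative settings, Eif4h was called in 7 (WT) and 10 (DKO), and Eif4b in 2 and 8. The changes of the 2 genes were not compared by a test.

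Within 4 pairs of related genes, 1 gene rose and the other fell or did not pass the test. The pairs were picked after their values were seen, so the ratios are descriptions with no test. Eif4a2, the second eIF4A gene, held 155, 166 and 166 TPM in WT naive and 128, 117 and 138 TPM in WT stimulated libraries. Its fitted changes were -0.10 ± 0.24 and -0.16 ± 0.24 (adjusted p = 0.964 and 0.72). In both genotypes its stimulated libraries were below the naive ones, and 1 of 11 alternatives, limma on log2(TPM + 1), called it lower. Eif4a1 over Eif4a2 therefore moved from 1.48 ± 0.171 to 5.28 ± 1.2 in WT and from 1.41 ± 0.248 to 6.44 ± 0.975 in DKO cells. Eif4e3, an atypical cap-binding relative of eIF4E, fell: WT libraries went from 24.7, 27.2 and 27.6 to 15.8, 10.6 and 12.6 TPM and DKO libraries from 22.8, 25.8 and 24.1 to 11.8, 6.92 and 7.77 TPM. Its groups did not overlap in either genotype, with changes of -0.83 ± 0.26 (adjusted p = 0.0376) and -1.18 ± 0.26 (adjusted p = 0.00238), and Eif4e over Eif4e3 rose from 1.79 ± 0.125 to 9.45 ± 2.74 and from 1.97 ± 0.0504 to 16.2 ± 5.1. Over 11 alternative settings of the test, Eif4e3 was called lower in 8 in WT and 9 in DKO cells (adjusted p up to 0.436 and 0.19). Eif4g3, a second eIF4G, stood at 62.2 and 67.5 TPM in WT cells (change of 0.34 ± 0.23, adjusted p = 0.557), and Eif4g1 over Eif4g3 went from 2.77 ± 0.0564 to 4.6 ± 0.623. Eif1b, a second eIF1 gene, held 133, 128 and 147 TPM in WT naive and 122, 134 and 141 TPM in WT stimulated libraries, which overlapped, while Eif1 over Eif1b went from 5.37 ± 0.209 to 11.7 ± 1.3.

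**Figure D2:**
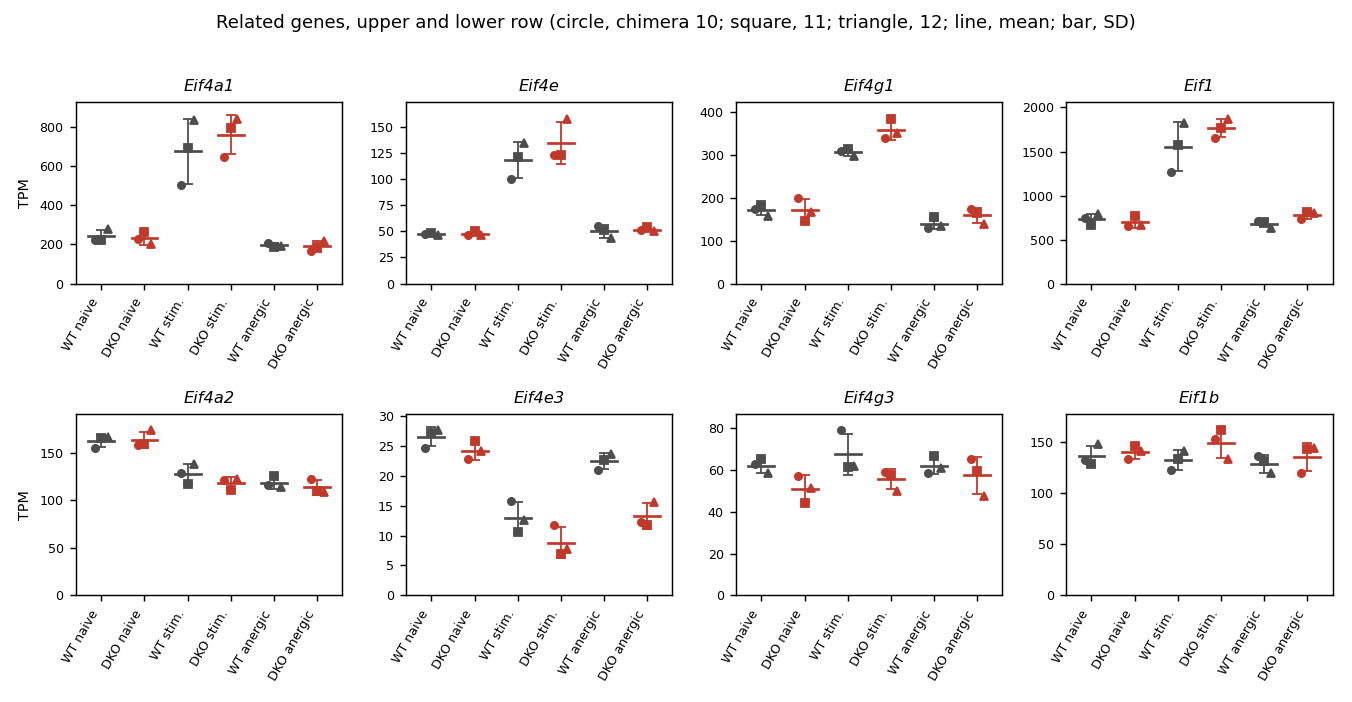
TPM per library (vertical axis, from 0) in the 6 groups for Eif4a1, Eif4e, Eif4g1 and Eif1 (upper row) and their relatives Eif4a2, Eif4e3, Eif4g3 and Eif1b (lower row); symbols are chimeras, lines means and bars SD. The upper genes are highest in the stimulated groups, while Eif4e3 is lowest there (13.0 and 8.81 TPM) and Eif1b stays between 119 and 161 TPM in all 18 libraries.

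Among the scanning factors, 6 of 7 rose in both genotypes. Eif1a, an eIF1A gene, went from 41.6, 50.8 and 49.6 to 130.2, 148 and 152 TPM in WT and from 48.2, 52.05 and 50.2 to 157, 161 and 196 TPM in DKO cells. The stimulated libraries were well separated from the naive ones, with changes of 1.85 ± 0.25 (adjusted p = 9.7e-06) and 2.07 ± 0.26 (adjusted p = 1.9e-06). Eif1ax, the X-linked eIF1A gene, changed by 1.31 ± 0.25 and 1.39 ± 0.25, and Eif1, which guards start codon choice, by 1.34 ± 0.29 and 1.64 ± 0.29. Eif5, the GTPase activator of eIF2, rose by 0.91 ± 0.26 and 1.04 ± 0.26, and Eif5b, which joins the large subunit, by 1.03 ± 0.23 and 1.15 ± 0.23. Eif1ad, named for its eIF1A-like domain, rose by 1.19 ± 0.26 and 1.43 ± 0.26. Eif1b was the exception, at 0.19 ± 0.24 (adjusted p = 0.867) and 0.39 ± 0.24 (adjusted p = 0.354).

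The eIF2 subunits rose together, but the Y-linked subunit gene did not pass the test. Eif2s2, the beta subunit, held 24.6, 23.1 and 24.5 TPM in WT naive and 73.4, 90.3 and 97.4 TPM in WT stimulated libraries, and 23.8, 27.1 and 23.4 and 85.99, 89.1 and 97.7 TPM in DKO libraries. The highest naive library held 27.1 TPM and the lowest stimulated one 73.4 TPM, and the changes were 2.11 ± 0.27 (adjusted p = 3.7e-06) and 2.17 ± 0.27 (adjusted p = 2.1e-06). Eif2s1, the alpha subunit that the stress kinases phosphorylate, went from 86, 93.9 and 81.6 to 188, 226 and 223 TPM in WT and from 82.9, 93.8 and 82.2 to 241, 241 and 268 TPM in DKO cells. All stimulated libraries again lay above the naive ones (changes of 1.53 ± 0.25 and 1.83 ± 0.25, adjusted p = 9.4e-05 and 8.2e-06). The gamma subunit is encoded by Eif2s3x on chromosome X and Eif2s3y on chromosome Y. Eif2s3x held 24.1, 24.5 and 22.9 TPM in WT naive and 33.5, 36.2 and 34.1 TPM in WT stimulated libraries, with 26.8, 25.4 and 22.9 and 36.4, 35.5 and 45.6 TPM in DKO libraries (changes of 0.77 ± 0.25 and 0.95 ± 0.25, adjusted p = 0.0415 and 0.00924). Eif2s3y was the more abundant of the pair and hardly moved, at 89.8, 83.5 and 81.5 TPM in WT naive and 92.4, 88.7 and 83.6 TPM in WT stimulated libraries, and 90.01, 79.4 and 88.01 and 92.05, 80.99 and 76.3 TPM in DKO libraries (changes of 0.28 ± 0.22 and 0.26 ± 0.22, adjusted p = 0.658 and 0.529). Without the 2 chimera 12 WT libraries, the change of Eif2s3x in WT cells was 0.62 (adjusted p = 0.078), and that call was also lost with RLE factors (0.216), without the filter (0.273) and by DESeq2 (0.13). Without chimera 11 the Eif2s3x call was lost in both genotypes (adjusted p = 0.288 and 0.0827). Eif2a and Eif2d, which can bring initiator tRNA without eIF2, did not pass the test in either genotype (WT means of 16.9 TPM before and 21.96 TPM after stimulation for Eif2a, and 34.2 and 30.9 TPM for Eif2d).

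Among subunit genes of eIF2B, the exchange factor that reloads eIF2 with GTP, some passed the test and others did not. Eif2b3, its gamma subunit, rose by 1.24 ± 0.22 (adjusted p = 2.6e-04) and 1.40 ± 0.22 (adjusted p = 5.5e-05), from 15.7 to 31.6 TPM in WT cells. Eif2b5, the catalytic epsilon subunit, rose in DKO cells (0.81 ± 0.24, adjusted p = 0.0204) and stood at the threshold in WT cells (0.72 ± 0.24, adjusted p = 0.0503). The regulatory subunit genes Eif2b1, Eif2b2 and Eif2b4 did not pass in either genotype, with changes of 0.11 to 0.63.

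Some eIF3 subunits passed the test and others did not. Of 14 tested, 8 rose in both genotypes (Eif3a, Eif3b, Eif3c, Eif3d, Eif3g, Eif3j1, Eif3l and Eif3m) and 6 passed in neither (Eif3e, Eif3f, Eif3h, Eif3i, Eif3j2 and Eif3k). Differences between subunits were not tested. Eif3e changed by 0.67 ± 0.26 and 0.63 ± 0.26 (adjusted p = 0.104 and 0.118), with all stimulated libraries above all naive ones in both genotypes. Of 11 alternatives, 4 in WT and 6 in DKO cells called it higher. Eif3c, a core subunit, changed most, from 226, 236 and 225 to 696, 761 and 839 TPM in WT and from 223, 221 and 195 to 746, 786 and 933 TPM in DKO cells. None of the stimulated libraries was below 696 TPM, with changes of 1.99 ± 0.28 (adjusted p = 1.2e-05) and 2.24 ± 0.28 (adjusted p = 2.2e-06). Eif3b, a core subunit with an RNA recognition motif, rose from 332 to 741 TPM in WT cells. At the other end, Eif3f, a subunit of the octamer's MPN pair, held 148, 132 and 168 TPM in WT naive and 103, 117 and 124 TPM in WT stimulated libraries. Its fitted change was -0.15 ± 0.24 (adjusted p = 0.928) in WT and -0.13 ± 0.24 in DKO cells (adjusted p = 0.774). In both genotypes the stimulated libraries of Eif3f were below the naive ones, and 1 of 11 alternatives, limma on log2(TPM + 1), called it lower. Its MPN partner Eif3h stood at 382, 335 and 422 TPM in WT naive and 358, 409.5 and 447 TPM in WT stimulated libraries, which overlapped, and Eif3k at 148, 133 and 151 and 139, 156 and 153 TPM, which also overlapped. As a result the 14 transcripts went from 2166 ± 108 to 3720 ± 351 TPM in WT cells with a changed composition: Eif3h was the most abundant in naive cells, and Eif3c and Eif3b (766 and 741 TPM) in stimulated cells.

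Of the 4 eIF2 alpha kinases, 1 fell and none rose. Eif2ak2, the double-stranded RNA sensor PKR, held 12.1, 14.8 and 10.9 TPM in WT naive and 8.39, 6.72 and 2.86 TPM in WT stimulated libraries, and 13.7, 11.8 and 13.2 and 5.53, 5.51 and 5.201 TPM in DKO libraries. Every stimulated library was below every naive one, chimera 12 of the WT cells furthest (changes of -0.99 ± 0.21 and -0.94 ± 0.21, adjusted p = 0.00176 and 0.00234). The Eif2ak2 calls depended on single chimeras: in DKO cells the change was -0.61 without chimera 10 (adjusted p = 0.299), -0.97 without chimera 11 (0.0957) and -0.76 with RLE factors (0.0879), and in WT cells -1.01 without chimera 11 (0.0886). Eif2ak4, the amino acid sensor GCN2, stood at 10.6, 15.7 and 11.7 TPM in WT naive and 15.9, 16.9 and 14.4 TPM in WT stimulated libraries and 12.3, 14.3 and 13.6 and 18.1, 15.4 and 16.2 TPM in DKO cells, without passing the test (adjusted p = 0.142 and 0.0747). Eif2ak3, the endoplasmic reticulum sensor PERK, held 27.9, 30.97 and 24.9 TPM in WT naive and 29.1, 22.7 and 25.7 TPM in WT stimulated libraries, which overlapped (change of 0.12 ± 0.22, adjusted p = 0.941). Eif2ak1, the heme-regulated kinase HRI, changed by 0.46 ± 0.24 and 0.46 ± 0.23 and did not pass either.

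Factors outside the core steps rose as well. Eif5a, whose hypusine-bearing protein helps ribosomes through difficult peptide bonds, went from 759, 654 and 739 to 1364, 1658 and 1854 TPM in WT and from 702, 711 and 684 to 1682, 1823 and 2030 TPM in DKO cells. These were the highest values of any member after stimulation, with changes of 1.43 ± 0.29 (adjusted p = 9.7e-04) and 1.69 ± 0.29 (adjusted p = 1.3e-04), the WT call being lost without chimera 11 (1.39, adjusted p = 0.0798). Its relative Eif5a2 stayed below 11 TPM in all groups. Eif6, which keeps free large subunits from joining, held 169, 156 and 174 TPM in WT naive and 257, 292 and 338 TPM in WT stimulated libraries, and 155, 164 and 144 and 296, 348 and 351 TPM in DKO cells (changes of 1.08 ± 0.26 and 1.39 ± 0.26, adjusted p = 0.0056 and 4.2e-04), with the WT call lost without chimera 11 (adjusted p = 0.132) and with RLE factors (0.0613). Eif4a3, an eIF4A-like helicase of the exon junction complex, rose by 0.86 ± 0.25 and 1.10 ± 0.25. Fitted changes and ratios of mean TPM rest on 2 different normalisations and are not equal.

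**Figure D3:**
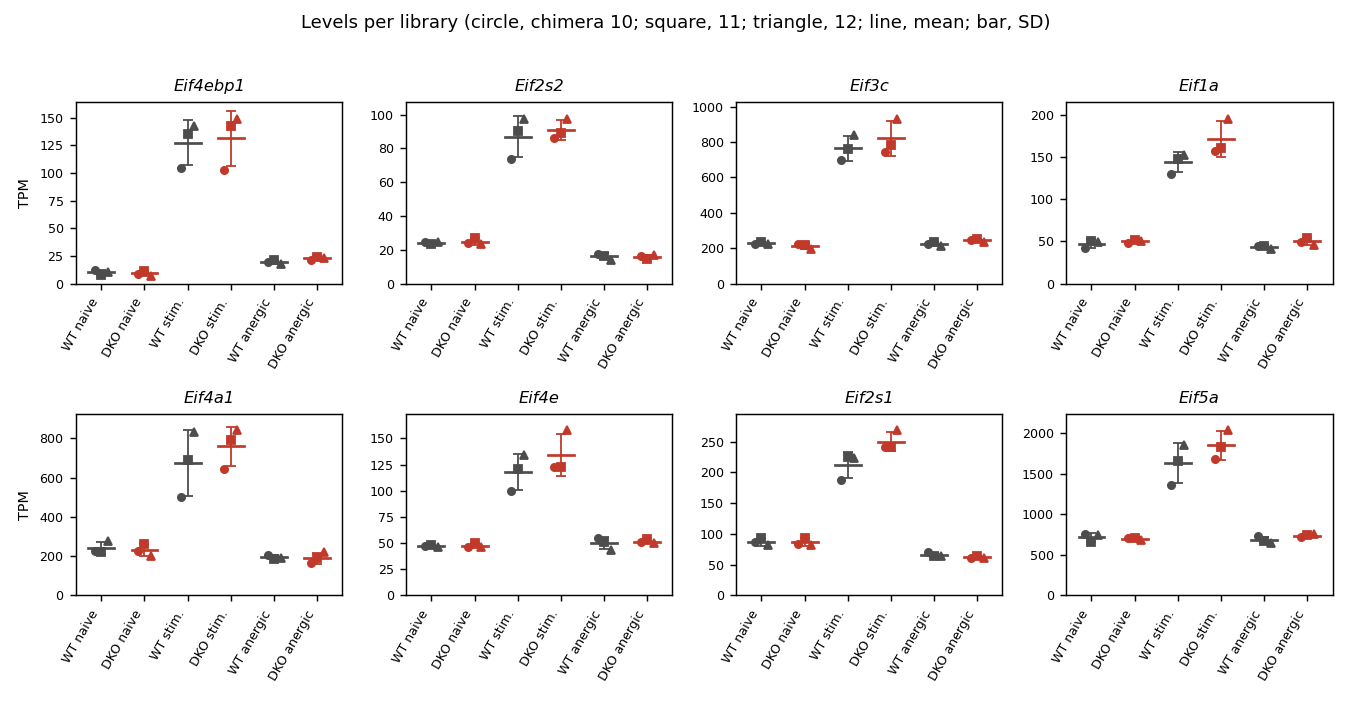
TPM per library (vertical axis, from 0) in the 6 groups for the 8 members with the largest stimulation changes in both genotypes; symbols are chimeras, lines means and bars SD. In each panel the 6 stimulated libraries lie above the other 12. Stimulated DKO libraries lie above the WT ones for Eif1a (157 to 196 and 130.2 to 152 TPM) and Eif2s1 (241 to 268 and 188 to 226 TPM). In the other panels the stimulated genotypes overlap.

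Promoters of members were searched for the E-box CACGTG (the same letters on both strands), which MYC-MAX and several other factors can bind. RefSeq gave a window for 45 of the members (GRCm38.p6), and 250 bases before the start were read. The E-box was present in 7 of 45 (15.6%), against 6.05% of 27025 genes and 8.39% of the 8295 genes of similar GC content. It was in 3 of the 23 members that rose in both genotypes (13%) and in 4 of the other 22 (18.2%). The stretches around the E-box (in capitals) are shown for the 3 members that rose and for 2 that did not, Eif3f and Eif1b.
Eif4a1: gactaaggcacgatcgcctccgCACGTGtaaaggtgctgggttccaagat
Eif4g1: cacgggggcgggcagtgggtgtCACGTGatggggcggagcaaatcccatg
Eif4h: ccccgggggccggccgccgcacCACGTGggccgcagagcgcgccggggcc
Eif3f: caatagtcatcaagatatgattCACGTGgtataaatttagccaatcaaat
Eif1b: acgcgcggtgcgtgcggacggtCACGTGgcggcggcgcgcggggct
These lie at chr11:69672585-69672634 (minus strand), chr16:20672651-20672700 (plus), chr5:134639478-134639527 (minus), chr7:108934325-108934374 (plus) and chr9:120492560-120492605 (plus). The E-box began 189, 54, 96, 68 and 24 bases before the RefSeq start used, in that order. For Eif4g1 and Eif1b, GENCODE vM21 starts the gene further upstream, so that there the E-box lies within the annotated gene. A match is a description of the letters and says nothing of binding.

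Compared with naive cells, anergic cells changed few initiation factors past the threshold. In WT cells 2 members were higher and 2 lower, where 5.11% of all genes were higher and 4.71% lower (9.32% and 9.82% among genes with logCPM over 1). In DKO cells 2 were higher and none lower, where 6.65% and 2.76% of all genes were. Fewer cells of a type and less RNA per cell cannot be told apart in these bulk samples. Leaving out chimera 10, 11 or 12 gave 2, 1 or 4 higher and 0, 0 or 3 lower in WT cells, and 2, 2 or 6 higher and 0, 0 or 3 lower in DKO cells, and leaving out the 2 WT libraries of chimera 12 gave 3 higher and 5 lower in WT cells and 6 and 2 in DKO cells. Shares of all genes are not given for these alternatives, so the shifts need not be particular to the members. The anergic and the stimulation comparisons share the naive libraries.

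Eif4enif1 (4E-T, chromosome 11, 3202392 to 3244588) was higher in both genotypes. WT naive libraries held 27.1, 28.1 and 27.3 TPM and WT anergic ones 107, 102 and 103 TPM, and DKO libraries 29.4, 23.7 and 29.4 and 88.1, 72.2 and 89.1 TPM. The anergic libraries were also above all 6 stimulated ones, which ran from 33.7 to 43.2 TPM. The changes were 1.69 ± 0.22 (adjusted p = 2.5e-06) in WT and 1.73 ± 0.22 (adjusted p = 1.9e-06) in DKO cells (edgeR), and all 11 alternatives called it in both. The difference between the genotypes' changes was 0.03 ± 0.30 (adjusted p = 0.96).

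Eif4ebp1 was higher in DKO anergic cells, at 21.1, 24.3 and 23.2 TPM against 8.47, 11.7 and 7.21 TPM in DKO naive cells, a change of 1.43 ± 0.30 (adjusted p = 0.0017). In WT cells the libraries also did not overlap, 19.6, 21.5 and 18.1 TPM against 11.9, 8.02 and 10.2 TPM, but the change of 0.73 ± 0.30 did not pass (adjusted p = 0.163), and the difference between the genotypes' changes was 0.71 ± 0.42 (adjusted p = 0.488). Without chimera 12 the WT change was 0.97 (adjusted p = 0.00521).

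Eif2ak2 (PKR, chromosome 17, 78852564 to 78882573) was higher in WT anergic cells. Its libraries held 24.8, 30.04 and 31.9 TPM against 12.1, 14.8 and 10.9 TPM in WT naive cells, while DKO anergic libraries held 15.1, 14.8 and 16.7 TPM against 13.7, 11.8 and 13.2 TPM in DKO naive cells. The WT groups were far apart and the DKO groups close, with changes of 0.97 ± 0.21 (adjusted p = 0.00194) and 0.40 ± 0.21 (adjusted p = 0.314), but the difference of the 2 changes, -0.57 ± 0.29, did not pass (adjusted p = 0.47). Treg markers were likewise higher in WT than in DKO anergic libraries, as given above, and their part in the Eif2ak2 level was not tested. Without chimera 11 the WT change was 0.91 (adjusted p = 0.122), and with RLE factors 0.76 (adjusted p = 0.0978).

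The 2 members lower in WT anergic cells are eIF3 subunits. Eif3e went from 81.6, 75.4 and 83.2 to 57.8, 50.4 and 48.4 TPM (-0.83 ± 0.26, adjusted p = 0.0379) and Eif3f from 148, 132 and 168 to 104, 99.97 and 107 TPM (-0.76 ± 0.24, adjusted p = 0.046). DKO libraries held 86.5, 93.4 and 92.1 and 53.5, 51.3 and 53.1 TPM of Eif3e (-0.65 ± 0.26, adjusted p = 0.134) and 151, 173 and 156 and 112, 127 and 132 TPM of Eif3f (-0.24 ± 0.24, adjusted p = 0.657). In both genotypes the anergic libraries were below the naive ones for both genes. The 2 WT calls were near the threshold. The Eif3e call was lost without chimera 10 (-0.85, adjusted p = 0.178), without chimera 11 (-0.99, 0.154) and with RLE factors (-1.04, 0.0538). The Eif3f call was lost without chimera 10 (-0.73, adjusted p = 0.29), 11 (-0.95, 0.136) or 12 (-0.50, 0.0615) and with RLE factors (-0.98, 0.0642).

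How many members were lower in anergic cells depended on the scaling. With TMM, 48 of 54 fitted changes in WT cells were below 0, and at an unadjusted p under 0.05 there were 17 members lower and 3 higher. When TMM factors were taken from genes with logCPM over 1, there were 4 higher and 15 lower in WT cells, and 2 higher and 6 lower in DKO cells. By limma on log2(TPM + 1) these counts were 4 and 16 in WT and 3 and 10 in DKO cells, and with RLE factors 1 and 0 in WT and 2 and 0 in DKO cells. Shares of all genes are not given for these counts, which therefore do not set members apart from other genes. On TPM, 26 members in WT and 19 in DKO cells had all anergic libraries below all naive ones, where 9.92% and 25.6% of all genes did. TMM factors from genes with logCPM over 1 moved the median of all genes by 0.14 (log2) and RLE factors by -0.16 in WT cells. The median member minus the median of all genes was -0.66 in WT cells (-1.11 to -0.22 over all alternatives) and 0.29 in DKO cells (0.07 to 0.33). Genes with logCPM over 1 had medians of 0.00 and 0.04, beside -0.40 and 0.08 for the members, so that on this background the members lay lower in WT cells and close to other genes in DKO cells. Just short of the threshold in WT cells were Eif2s2 (24.1 to 16.1 TPM, -0.79 ± 0.26, adjusted p = 0.0573), Eif2s3x (23.8 to 16.4 TPM, -0.77 ± 0.25, adjusted p = 0.0513) and Eif3h (379.5 to 269 TPM, -0.72 ± 0.25, adjusted p = 0.0855). Without the replicate block, Eif2s2 and Eif2s3x passed the test in WT cells (adjusted p = 0.048 and 0.0434). Of the 11 alternatives, each of these 2 genes was called lower in 7 and Eif3h in 4, with adjusted p up to 0.219, 0.303 and 0.31 in the others. Eif2ak3 (PERK, 27.9 to 20.9 TPM in WT cells) was called lower there in 6 (changes of -0.84 to -0.40, adjusted p up to 0.498). In DKO cells Eif4e3 (24.2 to 13.2 TPM, groups not overlapping) was called lower in 5 (changes of -0.84 to -0.61, adjusted p up to 0.674). Neither passed in the main fit.

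**Figure D4:**
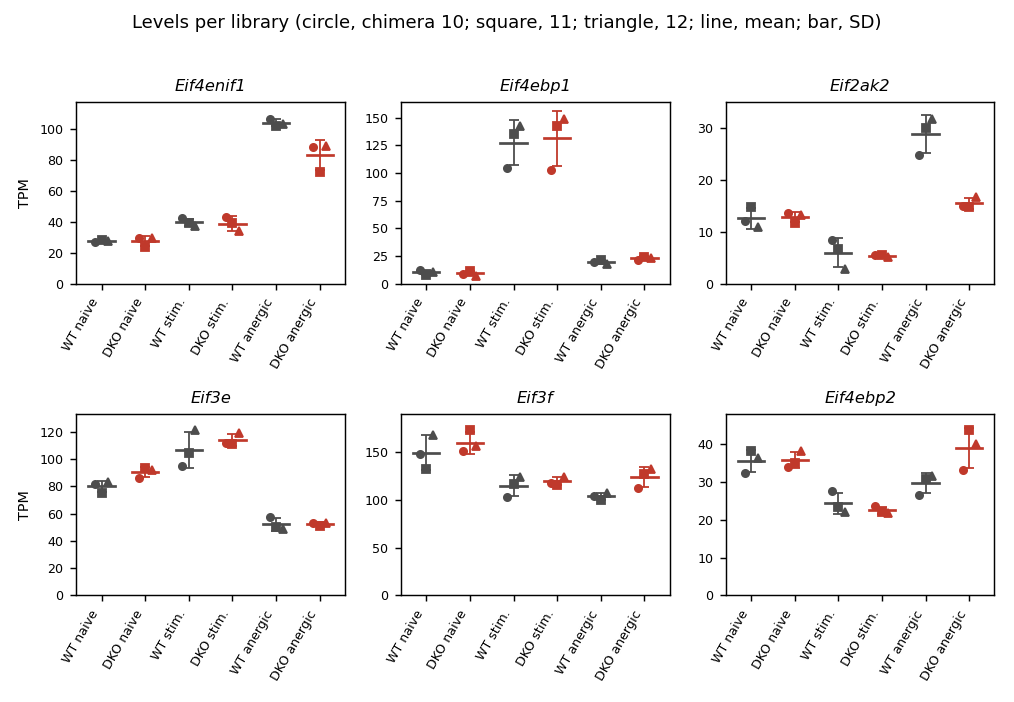
TPM per library (vertical axis, from 0) in the 6 groups for the members called in anergic over naive cells and for Eif4ebp2; symbols are chimeras, lines means and bars SD. Eif4enif1 is highest in the anergic groups of both genotypes, Eif2ak2 in WT anergic cells (24.8 to 31.9 TPM), and Eif3e and Eif3f are lower in anergic than in naive cells.

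Between genotypes, no member passed the test in any of the 3 populations. In naive cells 0 of 54 were called by edgeR, DESeq2 or limma on log2 TPM, where 0.0947% of all genes were called by edgeR, and 0, 1 and 2 members had an unadjusted p under 0.05. In stimulated cells the calls were again 0 by all 3 tools (0.216% of all genes by edgeR), with 1, 1 and 10 members at an unadjusted p under 0.05. In anergic cells they were 0 by edgeR and DESeq2 and 1 by limma (1.34% of all genes by edgeR), with 4, 2 and 8 at an unadjusted p under 0.05. The 95% interval of a member's difference reached a median of 0.51 on either side of the estimate. With adjustment over all genes a call needed more than an interval clear of 0: Eif2ak2 in anergic cells, at -1.08 to -0.22, was not called. For Eif4ebp1 it was -0.62 to 0.56 in stimulated cells, for Eif4e -0.44 to 0.66 and for Eif5a -0.47 to 0.69. On TPM, the groups did not overlap for 7 of 54 members in naive, 15 in stimulated and 12 in anergic cells, where 13.1%, 9.03% and 23.7% of all genes did not. In that order, DKO libraries were the higher ones for 3, 12 and 9 of these members and the lower ones for 4, 3 and 3.

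Among members with logCPM over 1, the 3 differences between genotypes furthest from 0 were in anergic cells (Eif2ak2, Eif4ebp2 and Eif3i), followed by Eif4e3 in stimulated cells. Eif2ak2 held 24.8, 30.04 and 31.9 TPM in WT and 15.1, 14.8 and 16.7 TPM in DKO libraries, which did not overlap (-0.65 ± 0.21, adjusted p = 0.182). Eif4ebp2 held 26.6, 30.8 and 31.5 TPM in WT and 33.1, 43.6 and 39.9 TPM in DKO libraries, all DKO values being higher (0.63 ± 0.20, adjusted p = 0.182). Eif3i, an eIF3 subunit, held 80.3, 67.5 and 63.9 TPM in WT and 85.9, 93.6 and 101.1 TPM in DKO libraries, again all higher in DKO cells (0.62 ± 0.27, adjusted p = 0.493). Eif4e3 differed by -0.59 ± 0.26 in stimulated cells, where its groups overlapped (adjusted p = 1). In anergic cells it held 20.97, 22.7 and 23.6 and 12.3, 11.7 and 15.7 TPM, lower in every DKO library (-0.54 ± 0.26, adjusted p = 0.605), and it was the 1 member called by limma. Without chimera 12, Eif2ak2 (-0.68, adjusted p = 0.0207) and Eif4ebp2 (0.61, adjusted p = 0.0205) passed. Foxp3 was lower in the DKO anergic libraries too, as given above, and its part in these differences was not tested.

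Whether the response itself differed between genotypes was tested as an interaction. For stimulation, 0 of 54 members were called (0.00296% of all genes), with 0 by DESeq2 and 0 by limma, and 0, 0 and 3 members at an unadjusted p under 0.05. Members' differences ran from -0.35 to 0.41 among those with logCPM over 1, with a median standard error of 0.35 and a median 95% half-width of 0.72. Of the 54 fitted values, 46 were above 0 (median 0.15, against -0.04 for genes with logCPM over 1 and -0.20 for all genes). Over the alternatives the members' median ran from 0.09 to 0.47. For anergy, 0 were called by each tool (0.385% of all genes by edgeR), with 1, 7 and 7 at an unadjusted p under 0.05. Fitted values were above 0 for 51 of 54 members (median 0.48, against 0.26 for genes with logCPM over 1 and -0.34 for all genes), and that median ran from 0.12 to 0.82 over the alternatives.

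**Figure D5:**
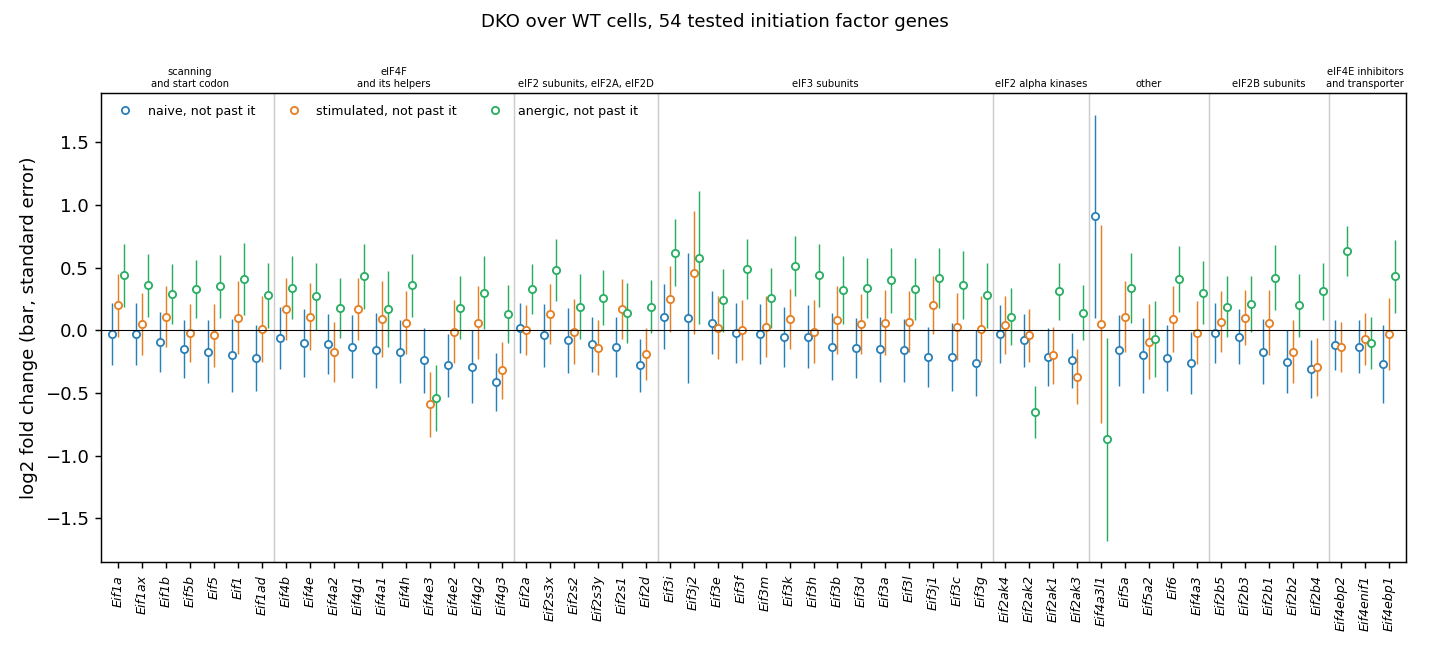
Log2 fold change of DKO over WT cells (vertical axis, bar, standard error) for the 54 tested members in naive (blue), stimulated (orange) and anergic (green) cells; open points did not pass an adjusted p under 0.05. All points are open and most lie within 0.5 of 0, with Eif2ak2 at -0.65 and Eif4ebp2 at 0.63 in anergic cells.

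In 38 other genes of initiation and its control, stimulation had a mixed picture, with 13 higher and 3 lower in WT and 15 higher and 3 lower in DKO cells (medians of 0.45 and 0.64). Of all genes, 7.13% were higher and 4.79% lower in WT, and 8.34% and 5.73% in DKO cells. Sesn2, a stress-induced brake on mTORC1, rose by 4.60 ± 0.33 (adjusted p = 5.9e-10) in WT and 5.17 ± 0.34 (adjusted p = 1.9e-10) in DKO cells, from 9.096 to 181 TPM in WT. Rheb, the GTPase that turns mTORC1 on, rose by 1.92 ± 0.25 and 2.23 ± 0.25, and Ppp1r15a (GADD34), which directs the phosphatase of eIF2 alpha, by 2.51 ± 0.29 and 2.43 ± 0.29. Pdcd4, an inhibitor of eIF4A, fell by 1.75 in WT and by 1.96 in DKO cells, opposite to Eif4a1. Ddit4 (REDD1), which restrains mTORC1, was lower at -1.90 ± 0.22 and -0.85 ± 0.22.

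In anergic cells the same list had 1 higher and 5 lower in WT (5.11% and 4.71% of all genes) and 0 higher and 4 lower in DKO cells (6.65% and 2.76%, edgeR). Trib3, a target of the eIF2 alpha stress pathway, was lower in both (-3.54 ± 0.41 and -3.26 ± 0.40), and Larp1, which binds mRNAs of the translation machinery, was lower in WT cells (-1.67 ± 0.27, adjusted p = 7.3e-05). Rragd, a GTPase that recruits mTORC1 to lysosomes, went opposite ways, higher in WT (1.48 ± 0.30, adjusted p = 0.00126) and lower in DKO anergic cells (-1.44 ± 0.31, adjusted p = 0.00195). It was the 1 gene of the list that passed between genotypes, at 13.7, 12.9 and 14.4 TPM in WT and 1.49, 2.802 and 2.25 TPM in DKO anergic libraries (-2.41 ± 0.31, adjusted p = 4.3e-05; interaction -2.91 ± 0.43, adjusted p = 0.00101). Of 9 elongation and release genes, 3 were higher and 1 lower after stimulation in WT cells (7.13% and 4.79% of all genes), with Etf1, the release factor eRF1, at 2.09 ± 0.27. In WT anergic cells 5 of the 9 were lower (4.71% of all genes), among them Eef1a1 (-1.27 ± 0.29) and Eef2 (-1.31 ± 0.28), the 2 main elongation factors. In DKO cells both were also below the naive libraries in every anergic library, at means of 5310 and 2663 TPM for Eef1a1 and 1486 and 808 TPM for Eef2, but did not pass (-0.87 ± 0.29 and -0.75 ± 0.28, adjusted p = 0.063 and 0.104). The genotypes' changes were not shown to differ, with interactions of 0.40 ± 0.41 for Eef1a1 and 0.56 ± 0.39 for Eef2 (adjusted p = 0.61 and 0.506, edgeR). In DKO anergic cells 1 of the 9 passed as lower, Eef2k, the kinase of eEF2 (-2.18 ± 0.30, adjusted p = 7.3e-06). It differed between the anergic groups of the genotypes (-1.26 ± 0.29, adjusted p = 0.0239), with an interaction of -1.70 ± 0.41 (adjusted p = 0.0733). Treg transcripts were lower in the DKO anergic libraries too, as given above. Their part in the Rragd and Eef2k differences was not tested.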

How the data were processed

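RNA was measured in 18 libraries, 6 groups of 3 chimeras. After trimming (fastp) and alignment to mm10 (STAR), the authors counted reads per gene with featureCounts and deposited whole-number counts. The TPM values were likewise deposited by the authors. Tool versions, annotation and gene lengths: not given in the sources used here. Columns holding the authors' own comparisons (fold changes and p-values) were not used. Of 55401 entries, 117 with a blank name (0.0654% to 0.136% of a library's counts) were left out.

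Counts were tested with R 4.3.3 and edgeR 4.0.16: filterByExpr by group (33795 genes kept), TMM factors, glmQLFit on 6 groups plus a chimera block, and the quasi-likelihood test, with Benjamini-Hochberg adjustment over all genes tested. Common dispersion was 0.134, with 13.9 prior and 10 residual degrees of freedom. Standard errors are |log2 fold change| over the root of F. The pseudocount on log2 TPM was 1. Alternatives were no block, RLE factors, TMM factors from genes with logCPM over 1, no filter, only genes with logCPM over 1, DESeq2 1.42.0, limma 3.58.1 on log2(TPM + 1), each chimera left out, and 2 WT libraries of chimera 12 left out. The script was tested on simulated data.

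Chimera numbers pair the libraries by host, as the labels and the study's methods state. As a check, residuals over the 33795 genes tested were correlated between libraries. WT and DKO libraries of one chimera and population gave -0.0811 to 0.298 (9 pairs), and those of different chimeras -0.638 to 0.589 (90 pairs). Libraries of a group differed by more than counting noise (chi-square per gene 6.96 to 43.6 over 18 pairs). Intervals use the t distribution.

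Members were grouped by role, and 56 of 58 matched GENCODE vM21 once. The members, role lists, pathway lists and alternatives were chosen with earlier results of these data known. Genes given library by library are the 8 with the largest stimulation change called in both genotypes, up to 6 called in anergy, any called between genotypes, 13 picked by role, and the 4 most abundant called nowhere; up to 4 pathway genes per comparison are named.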

Additional observations from a re-analysis of the deposited data

How the results depend on the processing

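The calls of 216 results, those of 24 named genes, on 11 alternatives gave 2376 values. Of these, 2225 kept their side of the threshold, 121 passed it where the main value had not, 30 lost it, and 0 changed direction with a call. Without the replicate block, 30 members were called in WT and 32 in DKO stimulated over naive cells, against 29 and 32 with it, so pairing by chimera changed few calls. After stimulation the number called in WT cells was 19 with RLE factors, and leaving out 1 chimera gave 9 to 30 in WT and 19 to 42 in DKO cells. In WT anergic over naive cells the main count of 4 became 1 with RLE factors, 19 with TMM factors from genes with logCPM over 1, 16 without the filter, 21 with only genes over that level, 7 with DESeq2, 20 with limma on log2 TPM, 8 without the 2 WT libraries of chimera 12, 6 without the block, and 1 to 7 without 1 chimera. In DKO anergic over naive cells the main count of 2 became 8, 10 and 13 with the logCPM scaling, the logCPM filter and limma, 8 without those 2 libraries, and 2 to 9 without 1 chimera. In DKO over WT anergic cells the count of 0 became 1, 2, 1 and 3 in the same order, and 0 to 2 without 1 chimera. DKO over WT naive, DKO over WT stimulated and both interactions gave 0 under all 11 alternatives. The cause of these shifts was not tested. Shares of all genes called under each alternative are not given, so a shift need not be particular to the members. With 3 libraries a group, the median member had a standard error of 0.25 and a 95% half-width of 0.51 (0.72 for the interactions). Changes larger than this also missed the adjusted threshold, such as Eif2s2 at -0.79 in WT anergic cells, so a count of 0 does not show that members were equal.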
